A study of Saccharomyces cerevisiae with 9 samples.

Results

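The response that 2 sphingolipid preparations had in common was measured in budding yeast, Saccharomyces cerevisiae, by taking the 6 treated arrays as a single group and setting them against the 3 vehicle arrays. All 9 of the 9 arrays of the series enter this comparison. The strain was BY4743, a diploid laboratory strain, in every group, and the labels name no other allele. HenGC 1 to 3 came from cells given GC of the mushroom hen of the woods, and SoyGC 1 to 3 from cells given GC of soybean, each at 40 ug/ml for 17 h. The vehicle control group carries neither a dose nor a time in the labels, and the letters GC are left without a full name there, although the title speaks of sphingolipid. Nothing in the labels says whether the numbered samples of a group were separate cultures, so p-values reflect only how these samples vary, and that spread may be technical. RNA came from whole cultures, so fewer cells of a type and less RNA per cell cannot be told apart.

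In sphingolipid work GC commonly stands for glucosylceramide, a ceramide that carries a glucose. Plants and many fungi make this lipid, while S. cerevisiae makes complex sphingolipids with an inositol phosphate head group. Budding yeast responds to the carbon and nitrogen sources it has left: glucose represses the genes for other sugars and for carboxylic acids, good nitrogen sources repress permeases and enzymes for poor ones, and the transcription factors Msn2 and Msn4 switch on a broad stress programme as growth slows.

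Between 92.4% and 95.8% of the 43792 spots per array that were not controls lay well above background, and 0 were saturated. HIS3, LEU2 and URA3, the selection markers deleted or disrupted in this strain, reached that mark on 0 of 9 arrays. Vehicle 3 stood apart from every other array. It lay at -41.8 on the first principal component, which held 56.3% of the variance, while the other 8 arrays lay between -3.69 and 14.7, and it was over 2-fold lower than the mean of vehicle 1 and 2 at 503 genes and over 2-fold higher at 12. Vehicle 3 shared its slide and scan day with HenGC 3 and SoyGC 3, whereas vehicle 1 and 2 shared a slide with SoyGC 1 and 2. Values without vehicle 3 are therefore given beside most of the results below.

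In treated cells some genes for maltose use, for the Msn2 and Msn4 stress programme and for ribosome assembly rose, and some for ammonium, peptide and allantoate transport, for lactate and acetate uptake and for cell wall building fell. Of 5820 genes tested, 73 rose (1.25%) and 128 fell (2.2%) in the treated arrays at a limma adjusted p under 0.05, together 3.45% of the genes. Most changes were small. The median log2 difference was 0.71 over the genes that rose and -0.52 over those that fell, against 0.01 over all genes tested, and 13 of the raised and 8 of the lowered genes changed by 2-fold or more. All 201 had groups that did not overlap, which was also so for 318 genes higher (5.46%) and 621 lower (10.7%) in treated cells without regard to a test. Before adjustment 631 higher and 945 lower genes had a p under 0.05.

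The number of genes past the threshold depended on single arrays. It fell to 13 higher (0.223%) and 5 lower (0.0859%) without vehicle 3, to 17 and 9 without vehicle 1, and to 3 and 2 without vehicle 2. It was 13 and 8 without HenGC 1, 9 and 5 without SoyGC 2, 47 and 57 without SoyGC 1, and 35 and 22 without SoyGC 3. Without HenGC 2 it was 94 and 160, and without HenGC 3 it was 69 and 128. All 18 genes called without vehicle 3 were among the 201. A fit in which each of the 3 groups had its own mean, so that a difference between the preparations no longer counts as spread, called 160 higher (2.75%) and 248 lower genes (4.26%), the 201 among them. With scan day as a block the counts were 146 and 309, and on the 6 arrays of scan day 1 alone they were 24 and 8.

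**Figure D1:**
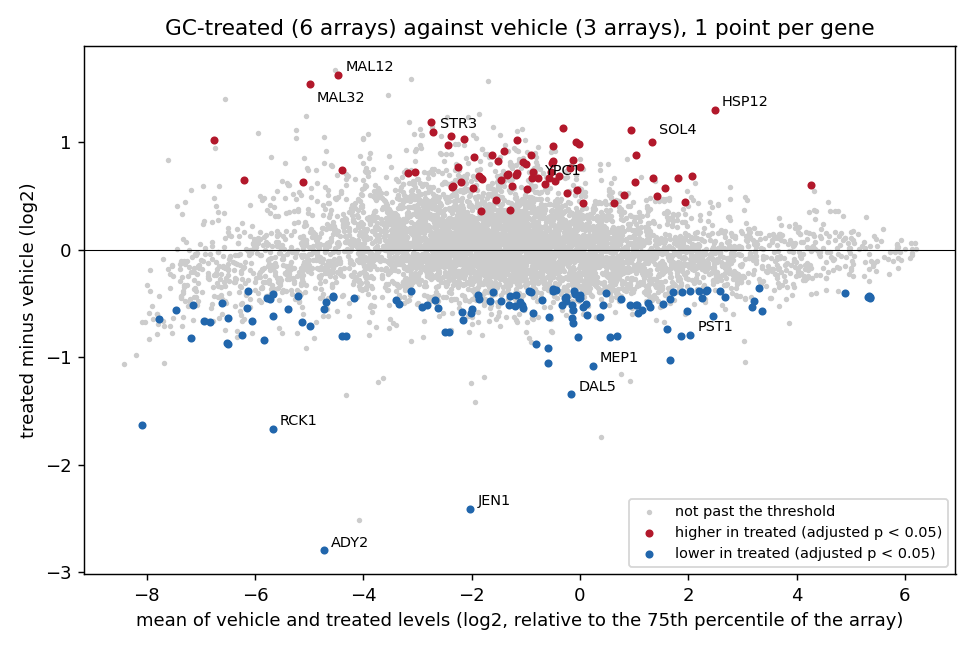
Treated minus vehicle difference (vertical axis, log2) against the mean of the vehicle and treated levels (horizontal axis, log2 relative to the array's 75th percentile), 1 point per gene, with genes past the threshold in red where higher and in blue where lower. The 73 red points lie at most 1.63 above 0, while ADY2 and JEN1 lie at -2.80 and -2.41.

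**Figure D2:**
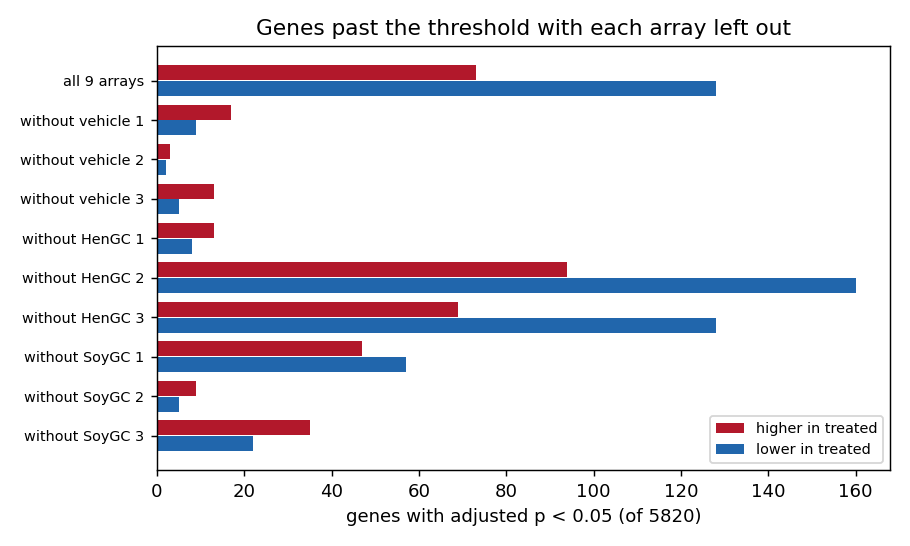
Bars give the number of genes past the threshold (horizontal axis) with all 9 arrays and with each array left out in turn, red for higher and blue for lower in treated cells. The bars for all 9 arrays are 73 and 128, and leaving out any of the vehicle arrays leaves at most 17 and 9.

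Among raised genes the maltose genes led. MAL12, a maltase that splits maltose into glucose, had log2 levels of -5.24, -5.20 and -5.39 on vehicle 1 to 3, and of -4.03 at the lowest, -3.67 at the median and -3.31 at the highest on the treated arrays. Every treated array lay more than 1 log2 unit above every vehicle array. The difference was 1.63 (SE 0.15, adjusted p = 0.00155), a 3.09-fold rise, with 1.66 for HenGC and 1.59 for SoyGC against the vehicle arrays they share. MAL32, the maltase of another maltose locus, rose by 1.54 (SE 0.15, adjusted p = 0.00253). The coding sequences of MAL12 and MAL32 are almost the same, so their probes may share signal.

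MAL31 and MAL11, maltose transporters of the cell membrane, rose as well. MAL31 had levels of -0.80, -0.93 and -0.89 in vehicle and between -0.27 and 0.75 in treated cells, a rise of 1.13 (SE 0.19, adjusted p = 0.0278). MAL11 rose by 0.77 (SE 0.13, adjusted p = 0.0278). These 4 were the only members of the 13-gene maltose list that passed, 30.8% against 1.25% of all genes tested. None of the 13 fell past the threshold, though 4 differences were negative, down to -0.33. The list also holds isomaltases and further transporters, and its median difference was 0.14 (0.15 without vehicle 3), with 0.31 on scan day 1 and -0.20 on scan day 2. With 1 array left out, MAL12 and MAL32 kept adjusted p-values of at most 0.0148 and 0.0247. MAL31 and MAL11 did not pass without HenGC 1, SoyGC 2, vehicle 1 or vehicle 2, with adjusted p-values up to 0.1002, and MAL31 did not pass without vehicle 3 (adjusted p = 0.0761). On scan day 1 and scan day 2 the MAL12 difference was 1.70 and 1.49.

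**Figure D3:**
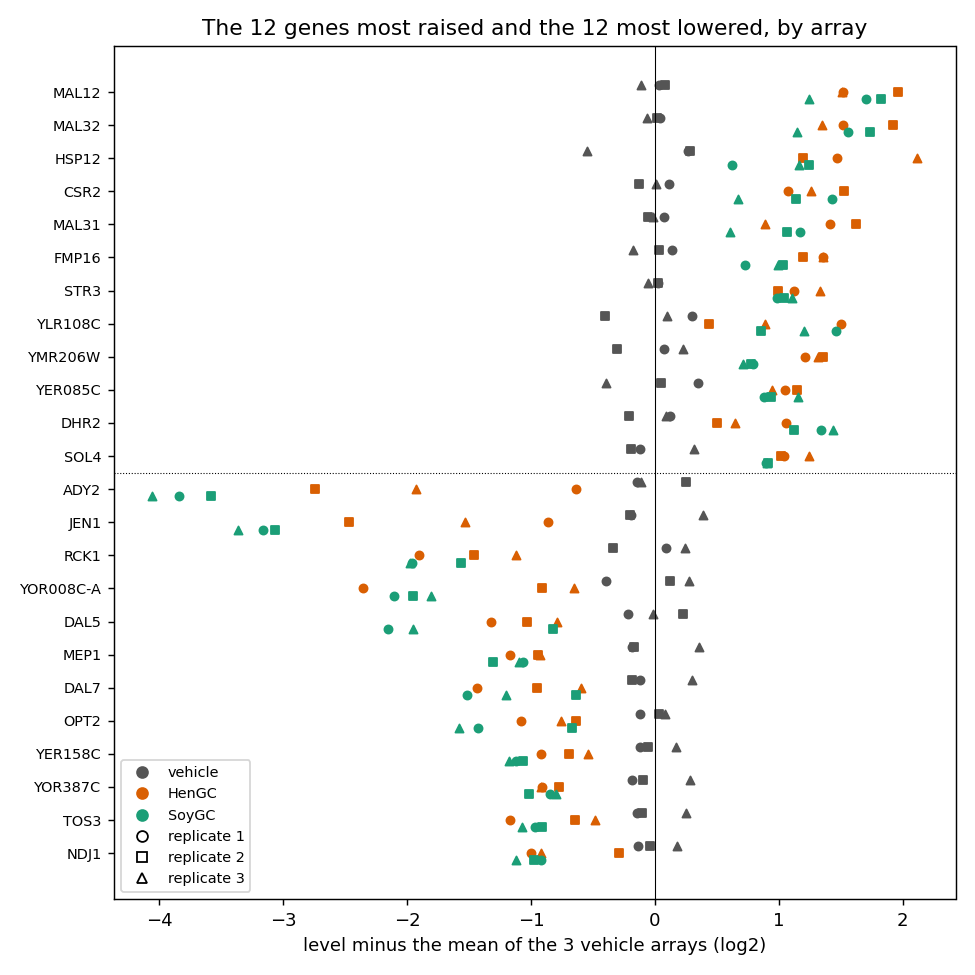
Log2 level minus the mean of the 3 vehicle arrays (horizontal axis) for the 12 genes that rose most and the 12 that fell most past the threshold (vertical axis), with grey for vehicle, orange for HenGC and green for SoyGC and marker shapes for the replicate number. No treated array overlaps the vehicle arrays at any of these genes, and at ADY2 and JEN1 the 3 SoyGC arrays lie below the 3 HenGC arrays.

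A few sulfur amino acid genes rose as well. STR3, a cystathionine beta-lyase of methionine synthesis, had levels of -3.24, -3.24 and -3.32 in vehicle and of -2.28, -2.19 and -1.93 (lowest, median, highest) in treated cells. The treated arrays spread over less than the distance between the groups. STR3 rose by 1.097 (SE 0.09, adjusted p = 0.00155), and it kept an adjusted p of at most 0.0148 with any array left out. MET28, a cofactor of the transcription complex that drives sulfur assimilation, rose by 0.67 (SE 0.12, adjusted p = 0.0288). MUP3, a low-affinity methionine permease, rose by 0.80 (SE 0.12, adjusted p = 0.0221). STR3 and MET28 were the 2 of 30 sulfur list members that rose (6.7%, against 1.25% of all genes tested). None fell, and the median was -0.03, or 0.01 with quantile normalization. MET28 did not pass without vehicle 1, 2 or 3, HenGC 1 or SoyGC 2, with adjusted p up to 0.1002. MUP3 did not pass without vehicle 1, vehicle 2 or SoyGC 2, with adjusted p up to 0.0979, and had an adjusted p of 0.0239 without vehicle 3.

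Of the other genes among the 12 that rose most, CSR2, an arrestin-related adaptor for ubiquitin ligation, had levels of -3.23, -3.47 and -3.34 in vehicle and from -2.67 to -1.82 in treated cells. It rose by 1.18 (SE 0.17, adjusted p = 0.0160), and it lost the call only without vehicle 2 among the 9 omissions (adjusted p = 0.0979). YMR206W, YLR108C and YER085C, which the gene table leaves under their systematic names, rose by 1.03, 1.06 and 1.02. YER085C also passed without vehicle 3 (adjusted p = 0.0213) and with the normexp background correction, where its difference was 0.58, and missed without vehicle 2, while YLR108C and YMR206W did not pass without vehicle 3 (adjusted p = 0.126 and 0.0513), vehicle 1, vehicle 2, HenGC 1 or SoyGC 2, and YLR108C also not without HenGC 3, SoyGC 1 or SoyGC 3.

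Part of the general stress programme rose. Of 48 genes that Msn2 and Msn4 are known to drive, 10 rose (20.8%, against 1.25% of all genes tested), 0 fell and 38 did not pass. The median difference was 0.27, or 0.23 without vehicle 3. Of the differences 35 were positive and 13 negative, down to -0.81. All treated arrays lay above all vehicle arrays at 15 members and below them at 3, where the shares over all genes were 5.46% and 10.7%. With 3 group means 13 members rose and 2 fell. SOL4, a 6-phosphogluconolactonase of the pentose phosphate pathway, stood at 0.71, 0.63 and 1.14 in vehicle and at 1.72, 1.80 and 2.07 (lowest, median, highest) in treated cells. The treated arrays lay close together, above vehicle 3, the highest vehicle array. SOL4 rose by 1.00 (SE 0.13, adjusted p = 0.0108) and by 1.16 without vehicle 3 (adjusted p = 0.00503). FMP16, a mitochondrial protein, rose by 1.11 (SE 0.15, adjusted p = 0.0126), with 1.02 and an adjusted p of 0.0415 without vehicle 3.

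HSP12, a small protein that stabilises membranes under stress, had levels of 2.11, 2.12 and 1.29 in vehicle and from 2.46 to 3.96 in treated cells. Vehicle 3 was the lowest of the 9 arrays by far. HSP12 rose by 1.30 (SE 0.29, adjusted p = 0.0450), but the adjusted p was 0.166 without vehicle 3, and the difference was 0.86 on scan day 1 and 2.19 on scan day 2. RTN2, a reticulon that shapes the endoplasmic reticulum, rose by 1.00 (SE 0.17, adjusted p = 0.0278). Its adjusted p was 0.0748 without vehicle 3. The number of stress list members that rose was 4 without vehicle 3, 4 without vehicle 1, 0 without vehicle 2, 4 without HenGC 1, 4 without SoyGC 2 and from 9 to 12 without any of the other 4 arrays. The list's median was 0.41 in HenGC and 0.07 in SoyGC cells, each against the same vehicle arrays.

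Genes of redox defence and of mitochondria rose in small numbers, where 1.25% of all genes tested rose. The share was 8.1% of antioxidant, 3.1% of heat shock, 2.6% of respiratory chain, 2.9% of mitochondrial ribosome and 7.1% of iron genes. Of 37 antioxidant genes, 3 rose and 0 fell, with a list median of 0.10, or 0.11 without vehicle 3. GPX1, a glutathione peroxidase, had levels of -2.17, -2.04 and -2.41 in vehicle and from -1.77 to -1.30 in treated cells, a rise of 0.69 (SE 0.12, adjusted p = 0.0288). MXR1, a methionine sulfoxide reductase, rose by 0.66 (SE 0.10, adjusted p = 0.0250). PRX1, the mitochondrial peroxiredoxin, rose by 0.57 (SE 0.10, adjusted p = 0.0278). HSP31, a methylglyoxalase with chaperone activity, was the only member of the 32 heat shock and chaperone genes that rose, by 0.66 (SE 0.11, adjusted p = 0.0278), and the list's median was 0.20, or 0.09 without vehicle 3.

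CYC7, an isoform of cytochrome c, rose by 0.88 (SE 0.16, adjusted p = 0.0311) and was the only member of 38 nuclear respiratory chain and ATP synthase genes to pass, where 33 differences were positive and the median was 0.27, or 0.18 without vehicle 3. MRPL27 and MRPL38, proteins of the large subunit of the mitochondrial ribosome, rose by 0.57 and 0.37. They were 2 of 69 mitochondrial ribosomal protein genes, of which 66 had positive differences and the median was 0.27, or 0.19 without vehicle 3. ISU2, a scaffold for iron-sulfur cluster assembly, and ENB1, a transporter of iron-siderophore complexes, rose by 0.80 and 0.58 and were the 2 of 28 iron genes that passed. All 9 genes of redox, heat shock, mitochondria and iron named here lost their calls without vehicle 1 (adjusted p 0.0507 to 0.0613), without vehicle 2 (0.0979 to 0.111), without vehicle 3 (0.0513 to 0.129) and without SoyGC 2 (0.0608 to 0.0934). Of the 9, HSP31 alone passed without HenGC 1, and 4 passed without SoyGC 3. MRPL38 also missed without HenGC 3 or SoyGC 1, MRPL27 without HenGC 3 and ENB1 without SoyGC 1. The scalings did not change the sign of the medians of the respiratory, mitochondrial ribosome and heat shock lists, while that of the antioxidant list was -0.00184 in the unscaled deposited table.

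Some genes for ribosome assembly rose in treated cells, and vehicle 3 had the lowest levels of these lists. Of 65 genes for assembly of the small subunit 6 rose (9.2%), 0 fell and 63 differences were positive, with a median of 0.62. Of 69 for the large subunit 7 rose (10.1%), 0 fell and 68 differences were positive, with a median of 0.79. Over all genes tested 1.25% rose. The medians of the treated arrays, relative to the vehicle mean, lay between 0.37 and 0.92 for the small and between 0.52 and 1.14 for the large subunit. On vehicle 1, 2 and 3 they were 0.31, 0.08 and -0.42 for the small subunit and 0.42, 0.18 and -0.64 for the large.

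IMP4, a component of the particle that processes small subunit RNA, had levels of -0.46, -0.56 and -0.67 in vehicle and of -0.15, 0.27 and 0.51 (lowest, median, highest) in treated cells. All treated arrays were higher and vehicle 3 lay close to the other vehicle arrays. IMP4 rose by 0.76 (SE 0.14, adjusted p = 0.0320) and by 0.76 on each scan day. DHR2, an RNA helicase of small subunit assembly, rose by 1.02 (SE 0.20, adjusted p = 0.0371), with vehicle 3 at -1.58 between vehicle 1 at -1.55 and vehicle 2 at -1.88. HCA4 and DBP8, further helicases of ribosome assembly, rose by 0.83 and 0.73.

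In the large subunit list RRP1 had levels of -0.14, -0.24 and -1.13 in vehicle and from 0.12 to 0.75 in treated cells. It rose by 0.99 (SE 0.23, adjusted p = 0.0458), and its vehicle 3 value lay 0.94 below the mean of vehicle 1 and 2. RRS1, NOP8 and RPF2, also of large subunit assembly, rose by 0.96, 0.88 and 0.81, and their vehicle 3 values likewise lay below both other vehicle arrays. The RRS1 difference was 0.64 without vehicle 3. RPC82, a subunit of RNA polymerase III, rose by 0.59. It was the 1 of 36 polymerase I and III genes that passed (2.8%, against 1.25% of all genes tested). Without vehicle 3 the medians of the 2 assembly lists were 0.42 and 0.47, and 0 members of either passed. The 9 ribosome genes named here then had adjusted p-values of 0.0997 to 0.167. None of the 9 passed without vehicle 2, HenGC 1, SoyGC 2 or SoyGC 3, while 1 passed without vehicle 1, 1 without SoyGC 1, 8 without HenGC 2 and 6 without HenGC 3. On scan day 1 the medians were 0.39 and 0.43, and on scan day 2, where vehicle 3 is the only vehicle array, they were 1.02 and 1.52. Of 136 genes for cytosolic ribosomal proteins, 0 passed and the median was 0.07, which turned to -0.03 in the unscaled table. The part of vehicle 3 in these differences beyond its omission was not tested.

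**Figure D4:**
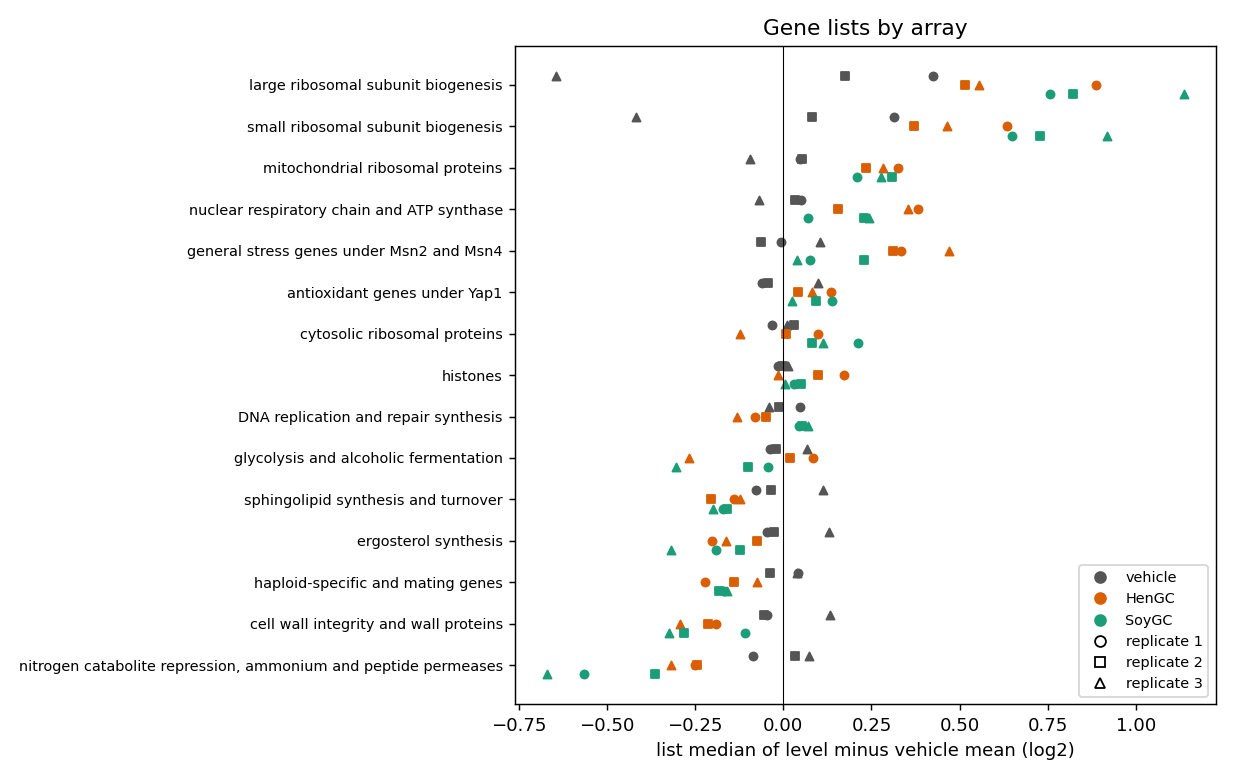
Median over a list's genes of the log2 level minus the vehicle mean (horizontal axis) for 15 gene lists (vertical axis), 1 point per array, with grey for vehicle, orange for HenGC and green for SoyGC and marker shapes for the replicate number. For the large subunit assembly list vehicle 3 lies at -0.64 and the treated arrays at 0.52 to 1.14, and for the nitrogen list all treated arrays lie at -0.25 or lower.

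Among the gene lists, the one for nitrogen sources held the most lowered genes. Of the 201 genes past the threshold in either direction, 127 were in no list. Of 35 genes under nitrogen catabolite repression or for ammonium and peptide uptake, 10 fell (28.6%, against 2.2% of all genes tested). None rose, 25 did not pass, and the median difference was -0.40. MEP1, an ammonium permease, had levels of 0.59, 0.61 and 1.13 in vehicle and of -0.53, -0.31 and -0.15 (lowest, median, highest) in treated cells. Every treated array lay below every vehicle array, and vehicle 3 was the highest array. MEP1 fell by 1.08 (SE 0.14, adjusted p = 0.0108), by 0.94 on scan day 1 and by 1.36 on scan day 2, and its adjusted p was at most 0.0433 with any array left out. PTR2, the di- and tripeptide transporter, is named for passing without vehicle 3 as well, which was seen in its values. It fell by 0.82 (SE 0.12, adjusted p = 0.0160).

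DAL5, the allantoate permease, had levels of 0.30, 0.74 and 0.50 in vehicle and from -1.64 to -0.28 in treated cells. The vehicle arrays were all above 0 and the treated arrays all below. DAL5 fell by 1.35 (SE 0.31, adjusted p = 0.0458), by 1.05 in HenGC and by 1.64 in SoyGC cells. DAL7, a malate synthase of allantoin breakdown, fell by 1.06 (SE 0.22, adjusted p = 0.0388). OPT2, a transporter of the oligopeptide family, fell by 1.02 (SE 0.22, adjusted p = 0.0388). The number of members that fell was 2 without vehicle 3, 2 without vehicle 1, 1 without vehicle 2, 2 without HenGC 1, 2 without SoyGC 2, 3 without SoyGC 1 and 4 without SoyGC 3, and 12 and 11 without HenGC 2 and HenGC 3. The list's median was -0.42 without vehicle 3.

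A few amino acid genes passed, in both directions. Of the permeases 4.5% rose and 9.1% fell, and of the synthesis genes 0% rose and 3.6% fell. Over all genes tested 1.25% rose and 2.2% fell. Among 22 amino acid permeases CAN1, the arginine permease, fell by 0.61 (SE 0.12, adjusted p = 0.0320) and DIP5, the permease of acidic amino acids, by 0.81 (SE 0.19, adjusted p = 0.0468), while MUP3 rose. GDH1, the glutamate dehydrogenase that fixes ammonium, fell by 0.40 (SE 0.08, adjusted p = 0.0371). ARO1, the large enzyme of the shikimate pathway, fell by 0.39 (SE 0.09, adjusted p = 0.0466). These were the 2 of 56 amino acid synthesis genes that passed. Of CAN1, DIP5, GDH1 and ARO1, none passed without vehicle 1, vehicle 2, vehicle 3, HenGC 1 or SoyGC 2, and their adjusted p without vehicle 3 was 0.0748 or higher. DIP5, GDH1 and ARO1 also missed without SoyGC 1 or SoyGC 3, and ARO1 without HenGC 2 or HenGC 3. GCV1, a subunit of the glycine cleavage complex, rose by 0.64 (SE 0.14, adjusted p = 0.0419), and its adjusted p was 0.117 without vehicle 3. It passed only without SoyGC 3 among the 9 omissions.

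The deepest falls past the threshold were at uptake genes for carboxylic acids, where the SoyGC arrays lay lowest. JEN1, the lactate and pyruvate transporter, had levels of -1.02, -1.02 and -0.43 in vehicle, of -1.68, -3.29 and -2.35 on HenGC 1 to 3 and of -3.99, -3.89 and -4.19 on SoyGC 1 to 3. HenGC 1 was nearest to vehicle and the 3 SoyGC arrays were the lowest. JEN1 fell by 2.41 (SE 0.52, adjusted p = 0.0399), to a level 5.31-fold lower. ADY2, an acetate transporter, had levels of -3.48, -3.08 and -3.45 in vehicle, of -3.97, -6.07 and -5.26 in HenGC and of -7.17, -6.92 and -7.39 in SoyGC cells. The treated arrays stood in the same order as at JEN1. ADY2 fell by 2.80 (SE 0.66, adjusted p = 0.04996, just under the threshold), to a level 6.94-fold lower. Over 23 settings the ADY2 difference ran from -3.77, on slide 1 alone, which holds no HenGC array, to -1.97.

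These were 2 of the 6 genes listed for carboxylate uptake and respiratory growth (33.3%, against 2.2% of all genes tested). None of the 6 rose past the threshold, though 2 differences were positive, up to 0.36. At 1 member all treated arrays lay above all vehicle arrays, as at 5.46% of all genes. With 3 group means 1 member rose and 3 fell. RGI2, a protein of respiratory growth singled out after its values were seen, had a similar difference of -2.52 that did not pass (adjusted p = 0.104), and HenGC 1 at -2.48 lay above all vehicle arrays, the highest of which was at -2.72. JEN1 passed without HenGC 1, HenGC 2 or HenGC 3 and not without any of the other 6 arrays, and ADY2 passed only without HenGC 1. Without vehicle 3 the JEN1 and ADY2 differences were -2.21 and -2.85 at adjusted p-values of 0.138 and 0.142. CIT2, the peroxisomal citrate synthase of the glyoxylate cycle, fell by 0.74 (SE 0.12, adjusted p = 0.0221). It was the 1 of 16 glyoxylate and gluconeogenesis genes that passed (6.25%, against 2.2% of all genes tested). The adjusted p of CIT2 was 0.0559 without vehicle 3, and it also missed without vehicle 2 and HenGC 1.

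In glycolysis and glycerol synthesis, PFK2, the beta subunit of phosphofructokinase, fell by 0.58 (SE 0.13, adjusted p = 0.0427) and GPP1, a glycerol-3-phosphatase, by 0.35 (SE 0.08, adjusted p = 0.0468). They were the 1 of 23 glycolysis and fermentation genes (4.3%) and the 1 of 14 glycerol genes (7.1%) that passed. Over all genes tested 2.2% fell. Neither passed without vehicle 1, 2 or 3, and both had an adjusted p of 0.147 or higher without vehicle 3. The same held without HenGC 1, HenGC 3 or any SoyGC array, at adjusted p-values of up to 0.102, and GPP1 also missed without HenGC 2. Of 17 citric acid cycle genes, 20 peroxisomal beta-oxidation genes, 22 hexose transport genes and 21 trehalose and glycogen genes 0 passed.

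Protein kinases and genes of unknown role made up much of the rest of the 12 that fell most. RCK1, a protein kinase linked to oxidative stress, had levels of -4.75, -5.18 and -4.60 in vehicle and of -6.82, -6.57 and -5.96 (lowest, median, highest) in treated cells. The groups were separated by more than the range of the vehicle arrays. RCK1 fell by 1.66 (SE 0.21, adjusted p = 0.0108), by 1.60 on scan day 1 and by 1.79 on scan day 2. It passed with any array left out, at an adjusted p of at most 0.0357, and its difference was -0.99 with the normexp background correction (adjusted p = 0.0137). TOS3, a kinase that activates the Snf1 kinase of glucose derepression, fell by 0.87 (SE 0.16, adjusted p = 0.0311), with an adjusted p of 0.0997 without vehicle 3.

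YOR387C fell by 0.88 (SE 0.11, adjusted p = 0.0108) and YER158C by 0.92 (SE 0.15, adjusted p = 0.0275), and the gene table gives neither a symbol. Of the 9 omissions YOR387C lost the call without vehicle 2 only, but its difference was -0.38 with normexp (adjusted p = 0.0552). The probe of YOR008C-A was well above background on 3 of 3 vehicle and 1 of 6 treated arrays, so it entered the test through the vehicle group alone. Its difference of -1.63 (SE 0.36, adjusted p = 0.0440) has treated levels near background, and it was -0.29 with the normexp background correction (adjusted p = 0.119). NDJ1, a telomere protein of meiosis, fell by 0.87 (SE 0.17, adjusted p = 0.0320) at levels from -7.20 to -5.90 over the 9 arrays, and its difference was -0.39 with normexp (adjusted p = 0.0732). YER158C, TOS3, NDJ1 and YOR008C-A did not pass without vehicle 1, vehicle 2, vehicle 3, HenGC 1 or SoyGC 2, and all but YER158C missed without SoyGC 3, and NDJ1 and YOR008C-A without SoyGC 1.

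A set of cell wall genes fell in small steps. Of 43 genes of the wall and of cell wall integrity signalling that were tested, 7 fell (16.3%, against 2.2% of all genes tested). None rose and 36 did not pass, with a median of -0.23, or -0.19 without vehicle 3. PST1, a wall protein anchored by glycosylphosphatidylinositol (GPI), had levels of 2.24, 2.44 and 2.61 in vehicle and of 1.41, 1.59 and 2.02 (lowest, median, highest) in treated cells. The groups did not overlap, and vehicle 3 was again the highest array. PST1 fell by 0.79 (SE 0.15, adjusted p = 0.0311). YPS1, a GPI-anchored protease of the wall, fell by 0.64 (SE 0.12, adjusted p = 0.0320). GAS3, of the glucan-remodelling Gas family, fell by 0.50, and GSC2, a subunit of glucan synthase, by 0.48. Without vehicle 3 the 4 differences were between -0.70 and -0.39 at adjusted p-values of 0.0992 to 0.0997. The number of list members that fell was 0 without each vehicle array, HenGC 1, SoyGC 2 or SoyGC 3, and 7, 5 and 7 without HenGC 2, HenGC 3 and SoyGC 1.

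In sphingolipid metabolism a single gene of 37 passed (2.7% rose, against 1.25% of all genes tested). YPC1, a ceramidase that splits phytoceramide and can run in reverse, had levels of -1.20, -1.11 and -0.997 in vehicle and of -0.85, -0.47 and -0.08 (lowest, median, highest) in treated cells. All treated arrays were higher, SoyGC 3 by the least. YPC1 rose by 0.66 (SE 0.16, adjusted p = 0.04996, just under the threshold), by 0.85 on scan day 1 and by 0.28 on scan day 2. It passed only without SoyGC 3 among the 9 omissions and had an adjusted p of 0.126 without vehicle 3.

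The other 36 sphingolipid genes did not pass, and the list's median was -0.14, or -0.12 without vehicle 3. LCB1 and LCB2, the subunits of serine palmitoyltransferase, which starts the pathway, had differences of -0.13 (SE 0.11) and -0.02 (SE 0.14) with overlapping groups. Over all 5820 genes tested, 621 (10.7%) had all treated arrays below all vehicle arrays, passing or not. This was so for 6 of the 37 sphingolipid genes, and none of the 6 passed. These were ORM1, an inhibitor of serine palmitoyltransferase (-0.33, adjusted p = 0.0607), TSC10, the next enzyme of the pathway (-0.34, adjusted p = 0.0632), and SUR2, the hydroxylase that makes phytosphingosine (-0.47, adjusted p = 0.0591). They also were LAC1, a ceramide synthase subunit (-0.36, adjusted p = 0.0539), ISC1, a phospholipase of inositol sphingolipids (-0.50, adjusted p = 0.0554), and YPK1, a kinase that regulates the pathway (-0.30, adjusted p = 0.0896). For all 6 vehicle 3 was the highest array, and without it the differences were between -0.46 and -0.21. The remaining 28 genes, among them those for complex sphingolipids and long-chain base phosphates, had differences from -0.63 to 0.39, of which 5 were positive, and adjusted p-values of 0.0901 or higher.

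Of 29 ergosterol genes 1 fell (3.4%, against 2.2% of all genes tested) and 0 rose. It was ERG24, the sterol C-14 reductase, with a fall of 0.46 (SE 0.09, adjusted p = 0.0377). Of 28 genes for membrane stress and lipid flipping 1 passed (3.6%). It was DNF2, a flippase of the cell membrane, which fell by 0.51 (SE 0.10, adjusted p = 0.0320). Without vehicle 3 the adjusted p-values of ERG24 and DNF2 were 0.126 and 0.0992. Both also missed without vehicle 1, vehicle 2, HenGC 1, SoyGC 2 or SoyGC 3, and ERG24 without SoyGC 1, at adjusted p-values up to 0.1002. Of 36 fatty acid and phospholipid genes 0 passed. PDR11, a sterol importer of anaerobic growth, had a difference of -1.42 that did not pass (adjusted p = 0.0632), and 0 of 20 genes for sterol uptake and the anaerobic wall did.

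Few genes of other cell states passed. Haploid cells and cells of a single mating type express pheromone and agglutinin genes that a diploid represses. The list for mating holds these and others that are neither, such as STE20, STE11 and STE7. Of its 32 genes tested, SAG1 and MFA2 fell (6.25%, against 2.2% of all genes tested). None rose, and the median was -0.17 with and without vehicle 3. SAG1, alpha-agglutinin, fell by 0.76 (SE 0.13, adjusted p = 0.0280) from a vehicle mean of -2.04, and by 0.58 without vehicle 3 (adjusted p = 0.0513). MFA2, a precursor of a-factor, fell by 0.67 (SE 0.14, adjusted p = 0.0391) near background, its probe being well above it on 4 of 6 treated arrays. The MFA2 difference was -0.58 without vehicle 3 (adjusted p = 0.137) and -0.18 with the normexp background correction (adjusted p = 0.211). Of 22 meiosis genes tested 0 passed, with a median of 0.04 that turned to -0.11 without vehicle 3.

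Single genes also fell in the thiamine and zinc lists, 4.8% and 7.1% of their members, against 2.2% of all genes tested. Single calls of this kind do not describe a list as a whole. THI4, which makes the thiazole part of thiamine, fell by 0.65 (SE 0.12, adjusted p = 0.0312) as the 1 of 21 thiamine genes, and ZPS1, a secreted protein of zinc shortage, by 0.55 (SE 0.12, adjusted p = 0.0394) as the 1 of 14 zinc genes. Their adjusted p-values without vehicle 3 were 0.0997 and 0.133. Like SAG1 and MFA2, they did not pass without vehicle 1, vehicle 2, HenGC 1 or SoyGC 2. MFA2 and ZPS1 also missed without SoyGC 3, and ZPS1 without SoyGC 1. Among 45 DNA replication genes, 10 histone genes, 22 G1 and S phase genes, 32 G2 and M phase genes, 33 endoplasmic reticulum folding genes and 34 autophagy genes 0 passed, and their medians lay between -0.11 and 0.06, or between -0.16 and 0.07 without vehicle 3.

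Whether the preparations differed was asked of the 3 SoyGC against the 3 HenGC arrays. The difference itself holds no vehicle array, but the fit with 3 group means estimated each gene's spread from all arrays. The vehicle arrays, vehicle 3 among them, therefore enter the p-values and intervals given here. limma called 0 of 5820 genes (0%), and the smallest adjusted p was 0.241, while 736 genes had an unadjusted p under 0.05. The count was 0 without vehicle 3 as well, while 1 gene passed without the filter on dim probes and 21 with array weights. For JEN1 SoyGC minus HenGC was -1.58 with a 95% confidence interval of -2.38 to -0.78, and for ADY2 it was -2.06 (-3.04 to -1.07), both at an adjusted p of 0.241. Both intervals lie wholly below 0 before adjustment.

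Of the genes that passed in at least 22 of 23 settings, the interval of SoyGC minus HenGC was -0.47 to 0.32 for MAL12, -0.52 to 0.30 for MAL32, -0.34 to 0.13 for STR3, -0.50 to 0.21 for MEP1 and -0.85 to 0.17 for RCK1. Each of these intervals holds 0. The pooled fit counts a difference between the preparations as spread, so choosing genes that pass it favours genes where they agree. These intervals therefore cannot decide whether the preparations differ. DHR2 was higher with SoyGC by 0.56 (0.19 to 0.93) at an adjusted p of 0.293. Among the ribosome assembly lists the median of SoyGC minus HenGC was 0.28 and 0.26, and it was -0.35 over the general stress genes and -0.30 over the maltose genes. HenGC 1 and 2 lay on a slide of their own, so slide and preparation cannot be told apart for these 2 arrays.

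**Figure D5:**
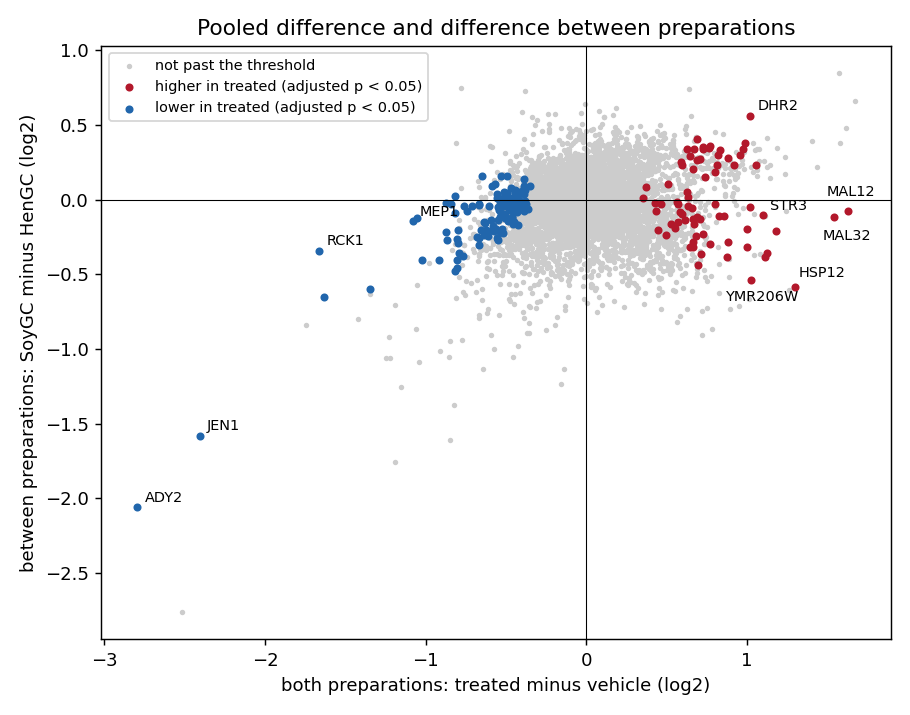
SoyGC minus HenGC (vertical axis, log2) against treated minus vehicle (horizontal axis, log2), 1 point per gene, with genes past the threshold of the pooled comparison in red where higher and in blue where lower. JEN1 and ADY2 lie at -1.58 and -2.06 on the vertical axis, while MEP1, STR3 and MAL12 lie near 0.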

How the data were processed

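Gene expression was measured on 9 Agilent arrays in 1 colour. The deposited values are fluorescence intensity per spot, background-subtracted and detrended by Feature Extraction 11.0.1.1, per the file headers. The submitters' processing notes also name R 3.0.2, but the role of R is not stated there. The authors' deposited table held the mean intensity of a probe's 7 spots on a linear scale, unscaled and not centred, on every array. Its columns had medians, in replicate order, of 2322, 2105 and 2009 in the vehicle group, 1772, 1799 and 2634 in the HenGC group, and 1772, 2177 and 2504 in the SoyGC group.

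From the deposited intensity the log2 was taken here and the array's 75th percentile subtracted. Outlier and control spots were left out, and the 7 spots of each of 6256 probes were averaged. Probes well above background (over 50% of their spots) on every array of 1 or more groups entered the test, and the brightest probe stood for a gene. Names came from systematic names matched to a table of assembly R64, used for names and neighbours only because the headers name the older build sacCer2. Of the probes 5765 matched, 462 kept the open reading frame name of the file and 29 were unnamed.

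limma 3.58.1 in R 4.3.3 (lmFit and eBayes) fitted the 6 treated arrays against the 3 vehicle arrays, adjusted by Benjamini-Hochberg over 5820 genes with a threshold of 0.05. In this fit a difference between the preparations counts as spread. SoyGC minus HenGC came from a fit with 3 group means. The fit was tested on simulated data. The members and the gene lists were chosen with earlier results of these data known. Genes were named by rule: the 12 largest changes past the threshold in each direction without overlap, up to 4 members past the threshold in each list or else the member with the smallest p, members of the sphingolipid list, and the strain markers. A few genes outside it are marked as chosen after their values were seen.

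Alternatives were other scalings, background correction (normexp with an offset of 50 on the median signal, since the files used here hold no mean signal), the authors' table, no filter on dim probes, the mean of a gene's probes, array weights, blocks for slide, scan day and replicate number, scan day 1 or slide 1 alone, and each array left out. Samples with the same number deviated together in some pairs and not in others. The correlations of their deviations ran from -0.65 to 0.56, above 0.1 in 5 of 9 pairs. The best match of an array had the same number for 6 of 9 arrays. With this mixed picture, the numbers were not used to pair samples in the main fit. The number of arrays limits the precision.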

Additional observations from a re-analysis of the deposited data

Results flagged for a closer look

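At 4 of the 88 genes named by rule a single treated array stood far from the other 5 of its group of 6. The gap to the nearest array took up most of the group's range and passed Dixon's critical value. Chance flags about 1 in 20 groups. NDJ1 was at -6.37 on HenGC 2, the highest treated array, while the next was at -7.00. MXR1 was at -1.18 on HenGC 3, where the next was at -1.50, and ARO1 was at 1.66 on SoyGC 1, where the next was at 1.51. YPK1 was at 0.46 on SoyGC 3, below the next array at 0.66.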

How the results depend on the processing

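The counts of raised and lowered genes moved with the setting. They were 160 and 248 with 3 group means, 146 and 309 with a scan day block, 165 and 330 with slide as a random block, 749 and 1017 with array weights, 24 and 8 on scan day 1 alone and 12 and 23 on slide 1 alone. Quantile normalization gave 59 lowered genes, and the authors' unscaled table gave 3 and 1. Leaving out 1 array gave 3 to 94 raised and 2 to 160 lowered genes. The count stayed within 1.5 times of 73 and 128 with median scaling, normexp, no filter on dim probes, the mean of a gene's probes and slide as a fixed block. The replicate number as a block gave 71 and 155, where the samples share only a number and 6 of 9 arrays correlated best with their own. Genes without overlap numbered 939 of 5820, with 451 in the authors' table, 1896 on scan day 1 alone, 3179 on slide 1 alone and 943 to 1430 with 1 array left out. With fewer arrays groups separate more often by chance. The counts on fewer than 9 arrays therefore cannot be compared in size with 939. Genes that differed between SoyGC and HenGC numbered 0, with 1 without the filter, 21 with array weights and 0 to 0 with 1 array left out. LCB2 turned to 0.00786 with slide as a fixed block and LCB1 to 0.0180 on slide 1 alone, and LCB2 lay between -0.21 and 0.10 with 1 array left out. MAL12, MAL32 and RCK1 passed in all 23 settings, and STR3 and MEP1 in 22, missing in the unscaled table. Normexp shrank 6 dim named genes by over 1.5 times (RCK1, YER085C, YOR387C, NDJ1, MFA2 and YOR008C-A). On scan day 1 alone RRS1 was 0.59 and RPF2 0.53. On slide 1 alone HSP12 was 0.66, CYC7 0.49, MRPL27 0.33 and GPP1 -0.23, and MRPL27 was 0.38 on scan day 1 alone. The causes of these moves were not tested.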

Other observations

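A pair of gene families outside the lists was looked at after the values were seen, so their counts are a description. Of the 7 PMT protein O-mannosyltransferases, which add mannose to secreted and wall proteins, PMT3, PMT4, PMT6 and PMT7 fell and 0 rose, with a median difference of -0.39. Of 19 genes of GPI anchor synthesis, which makes the anchor of many wall proteins, GPI10, GPI13 and LAS21 fell and 0 rose, with a median of -0.30. Over all genes tested 2.2% fell and 1.25% rose. Without vehicle 3 the medians were -0.40 and -0.22 and 0 members of either family passed.

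Some genes past the threshold lie next to each other on a chromosome. By the order of the gene table, 8 of 4907 neighbouring pairs of tested genes changed in the same direction and 1 pair in opposite directions. The pairs that rose included MAL11 with MAL12, and those that fell included DCG1 with DAL7, of the allantoin pathway, and AVT2 with CAN1. Differences of 2-fold or more that did not pass numbered 31 higher and 13 lower, led by RRP14 of ribosome assembly at 1.67 (adjusted p = 0.0539) and RGI2 at -2.52 (adjusted p = 0.104).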
